A study of Homo sapiens with 6 samples.

Results

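Cholesterol and fatty acid synthesis were followed in Jurkat cells, a widely used human leukaemia line of T cell origin, through 39 genes chosen by name. They comprise 18 sterol synthesis enzymes, 5 regulators of the SREBP transcription factors, 6 genes of sterol transport and the LXR receptors, and 10 fatty acid synthesis enzymes. All 39 were found in the count tables, which list 58735 genes, and all 39 were among the 17520 genes with enough reads for testing. The study compared 2 groups, each of 3 RNA-seq libraries. The cells of one group carried a lentiviral control hairpin RNA (shCtrl, genotype control) and those of the other a lentiviral hairpin against SATB1 (shSATB1, SATB1 knockdown). SATB1 is a chromatin organiser of T cells, and the study concerns how it shapes genome folding. Both groups were grown in RPMI 1640 medium with 10% fetal bovine serum, a source of lipoprotein cholesterol. One hairpin vector per group is named, and nothing states that the libraries came from separate infections or cultures, so the p-values reflect library-to-library spread, possibly of technical origin. The RNA came from whole cultures, so that fewer cells expressing a gene and less RNA per cell cannot be told apart.

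Cholesterol is built from acetyl-CoA through mevalonate, isoprenoid units, squalene and lanosterol, and fatty acids are built from acetyl-CoA through malonyl-CoA. Both pathways are controlled at transcription by the SREBP proteins. When membrane sterols are plentiful, INSIG proteins hold SREBP and its escort SCAP in the endoplasmic reticulum. When sterols run low, SCAP carries SREBP to the Golgi, where proteases release the part that enters the nucleus, usually acting there together with the factors NF-Y and Sp1. The LXR receptors respond to oxysterols and switch on cholesterol export. In T cells, synthesis of both lipid classes is known to rise when cells enter growth and division.

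SATB1 was lower in every shSATB1 library, as labelled. It stood at 279, 259 and 259 CPM (reads scaled to library size with TMM factors) in shCtrl 1, 2 and 3, and at 102, 100.2 and 104 CPM in shSATB1 1, 2 and 3. The log2 fold change was -1.38 (SE 0.0611; edgeR adjusted p = 1.11e-08), and a two-sided exact permutation test gave p = 0.1, the smallest that 3 against 3 libraries allow. The libraries held 26626539 to 28913623 reads in genes. The 10 T cell markers summed to 3649 to 4111 CPM in shCtrl and 3356 to 3629 CPM in shSATB1. Of them 1 rose and 5 fell, beside 14.3% rising and 16.6% falling over all tested genes. Markers of hepatocytes, epithelial cells and adipocytes, 5 each, summed to at most 0.690, 0.655 and 1.24 CPM, and myeloid markers to at most 2.26 CPM. SERPINA1, EPCAM, KRT19 and FABP4 had no read in any library. Of the 5 B cell markers, which summed to 55.4 to 65.2 CPM in shCtrl and 48.2 to 56.1 CPM in shSATB1, nearly all reads came from CD79A, and 1 marker passed the test, with a fall. The part of these marker differences in the results was not tested. The libraries also differed in how many reads lay outside all annotated exons. That share was 9.10% ± 1.23 (SD, n = 3) in shCtrl and 11.4% ± 0.436 in shSATB1, with no overlap between the groups. Across all genes short transcripts were lower and long ones higher in shSATB1. Values that bear on both facts stand beside the results they touch. Per-library values are given throughout in the order of replicates 1, 2 and 3.

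Where the lipid synthesis genes changed, they went down. Of the 39, 24 fell at an edgeR adjusted p under 0.05, against 16.6% of all tested genes. None rose by edgeR, DESeq2 or limma-voom, against 14.3% of all tested genes by edgeR, whose calls in either direction made up 30.9%. Among the 39, 1 was higher at an unadjusted p under 0.05. The median log2 fold change was -0.31, beside 0.01 over all tested genes, and 35 of the 39 values were negative. Most of these genes are well expressed, and among genes above 8 CPM on average 25.3% fell. All 24 falling genes are among the 36 lipid genes above that level. All shSATB1 libraries lay below all shCtrl libraries for 25 of the 39 genes, as they did for 23.4% of all tested genes, and above them for 1, ABCA1, as for 21.7% of all tested genes. The changes were modest, between 1.19-fold (SQLE) and 1.52-fold (MVD) for the 24 that fell. In a test for changes beyond 1.2-fold (edgeR's glmTreat), 8 passed, all lower: HMGCS1, MVD, FDPS, FDFT1, EBP, DHCR7, ACAT2 and FADS2. By that test 3.98% of all genes were lower and 4.33% higher.

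**Figure D1:**
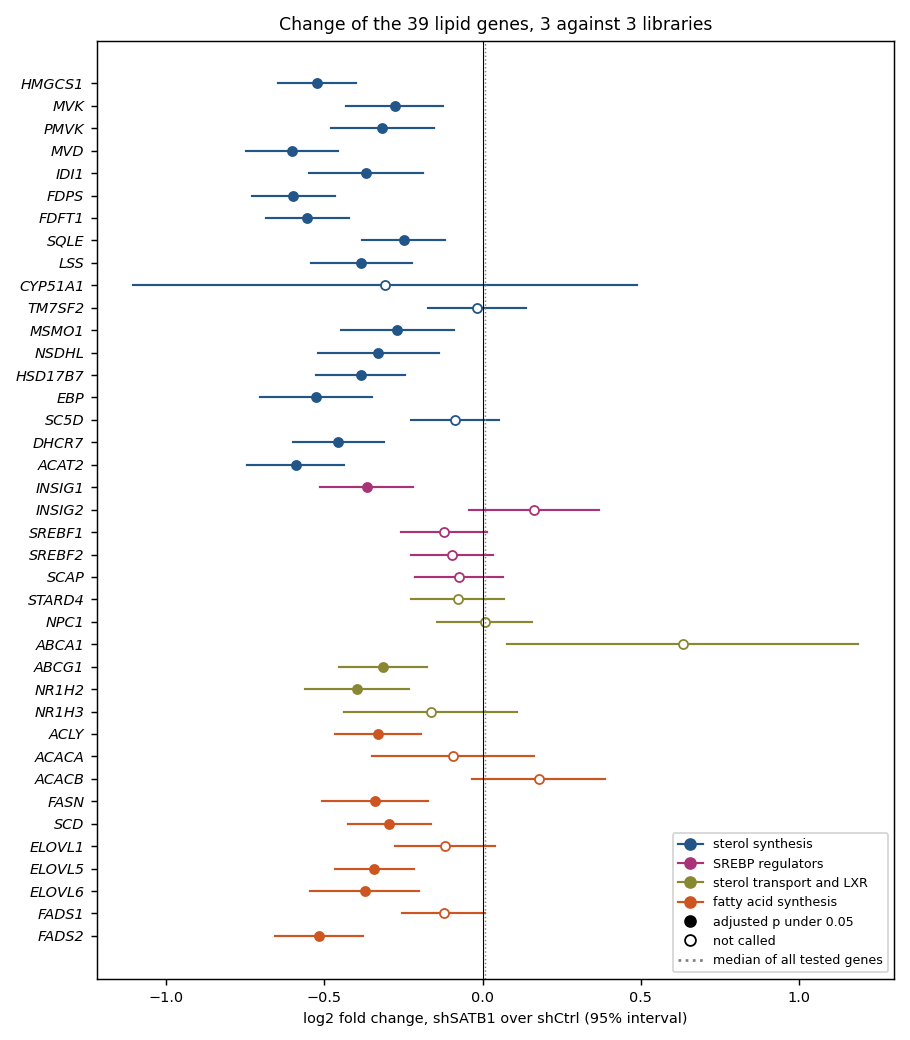
Log2 fold change of shSATB1 over shCtrl for each of the 39 genes, with its 95% interval from the edgeR fit (3 libraries per group). Filled points passed the adjusted threshold and all lie below 0. The intervals of CYP51A1 and ABCA1 are wide, as both have few reads, and the dotted line is the median of all tested genes.

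The promoters of these genes were searched for the boxes of factors known to act with SREBP. RefSeq promoter windows (GRCh38.p14, 250 bases before to 50 after a transcription start) were matched for 34 of the 39 genes, 48 windows in all, as some genes have several starts. FDFT1, SQLE, ACAT2, ABCG1 and FASN were not matched. The NF-Y box, CCAAT on either strand, was present in 28 of these 48 windows and in 34.6% of all 35116 windows. All windows here means those of 27305 genes, not limited to genes expressed in these cells, while most of the 39 are well expressed. By gene, 24 of the 34 had it in at least 1 window, against 39.7% of all genes in the table, among them 13 of 15 sterol synthesis genes, 7 of 9 fatty acid genes, and 16 of the 19 matched genes that fell. Of the 15 matched genes that did not pass, 8 had it. The Sp1 box, GGGCGG on either strand, was in 40 of the 48 windows against 45.0% of all windows. By gene, 17 of the 19 that fell and 15 of the 15 that did not pass had it, against 48.3% of all genes. The E-box CACGTG was in 7 of the 48 windows against 7.26% of all windows. By gene it was in 3 of the 19 and 3 of the 15, against 8.77% of all genes. A strict sterol regulatory element, TCACNCCAC on either strand, was in 1 of the 48 windows, that of SREBF2, and in 1.13% of all windows. None of these motifs contains another. A match is a description of letters and shows no binding, and the sites to which SREBP binds often differ from the strict form.

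The stretches below show the NF-Y box nearest the start for 9 genes that fell, from each part of the pathways, to let the boxes and their surroundings be compared. Each runs 5′ to 3′ on the strand of the gene with the box in capitals, as CCAAT or as its reverse complement ATTGG. The last line shows the sterol regulatory element match of SREBF2, in capitals.
HMGCS1 (chr5:43313496-43313524, minus strand): ctaccggccgcgATTGGctgtgggagcca
MVD (chr16:88663160-88663188, minus strand): ggctcgcacgggCCAATcctgtggtagcg
IDI1 (chr10:1048957-1048985, minus strand): ctggcgcgagcgATTGGctgcgcggcccg
FDPS (chr1:155308803-155308831, plus strand): tcccgcgggcacATTGGgagttgtagtct
EBP (chrX:48521766-48521794, plus strand): cttcgcttcaccATTGGctcgctccgtaa
DHCR7 (chr11:71448425-71448453, minus strand): ggtccgcctccgATTGGcaggcaatcgct
INSIG1 (chr7:155297696-155297724, plus strand): cgccggcctcccATTGGttgcggccgcct
ACLY (chr17:41919029-41919057, minus strand): gaacgcgtgtggCCAATcgcggggccgtt
SCD (chr10:100347035-100347063, plus strand): aattcccttcggCCAATgacgagccggag
SREBF2 (chr22:41832962-41832990, plus strand): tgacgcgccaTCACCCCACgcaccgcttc
Such a box lay wholly before a start in 15 of the falling genes. Its first base lay between 23 and 186 bases before that start, with a median of 68.

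Sterol synthesis carried most of the falls. Of its 18 genes, 15 (83.3%) fell, against 16.6% of all tested genes and 25.3% of genes above 8 CPM. None of the 18 rose by any of the 3 tools (none at an unadjusted p under 0.05), and their median log2 fold change was -0.38. Together their reads summed to 3934 ± 116 CPM (SD, n = 3) in shCtrl and 2860.2 ± 55.2 CPM in shSATB1, which is 72.7% of the control level. By library the sums were 3821, 4052 and 3929.7 CPM in shCtrl 1, 2 and 3 and 2812, 2920.3 and 2849 CPM in shSATB1 1, 2 and 3. The groups thus did not overlap in the summed level, and the spread within a group was small beside the gap.

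**Figure D2:**
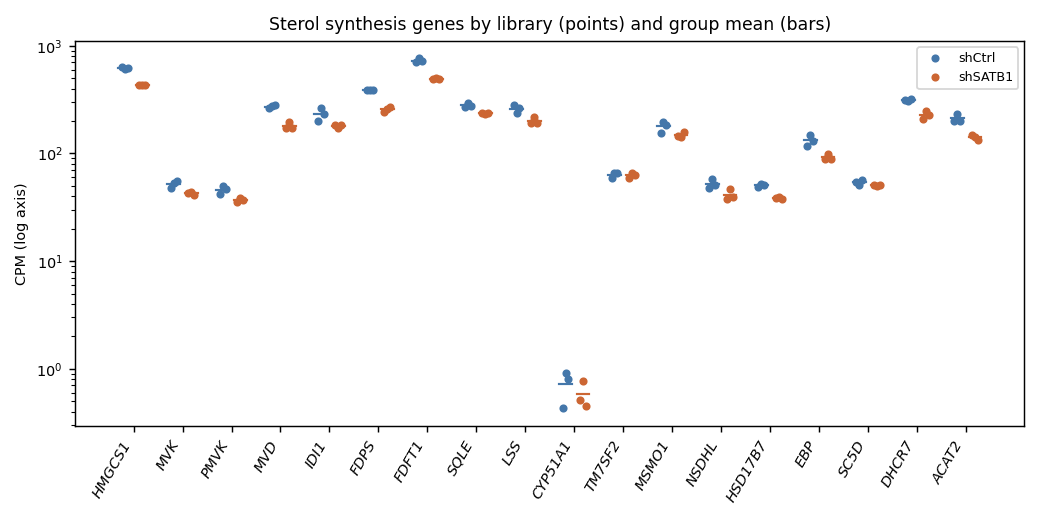
CPM on a log axis of the 18 sterol synthesis genes in each library (points; 3 shCtrl in blue, 3 shSATB1 in orange) with group means as bars, in the order of the list. The groups are separate for 15 of the 18 genes and overlap for CYP51A1, TM7SF2 and MSMO1.

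Transcripts of the earliest steps fell clearly. ACAT2, which joins acetyl-CoA units to acetoacetyl-CoA, had 201, 232 and 202 CPM across shCtrl and 148, 141 and 133 CPM across shSATB1. Its log2 fold change was -0.59 (SE 0.0714; adjusted p = 5.78e-05). ACAT2 shares 52.3% of its exon positions with SOD2, SOD2-OT1 and TCP1 on the opposite strand, and how the counting treated strand is not given in the sources used here. HMGCS1 (chromosome 5, 43289395 to 43313512, minus strand, hg38), the cytosolic HMG-CoA synthase, varied little within groups. It had 632, 614 and 615 CPM in the shCtrl libraries and 435, 428 and 429 CPM in the shSATB1 libraries, a log2 fold change of -0.52 (SE 0.0573; adjusted p = 2.55e-05). Every shSATB1 library was far below every shCtrl library. HMGCS1, IDI1 and FDPS share 15.0%, 14.8% and 18.6% of their exon positions with antisense genes on the opposite strand.

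All 4 genes from mevalonate to the isoprenoid units fell. MVK and PMVK, the mevalonate and phosphomevalonate kinases, went from 51.9 ± 3.82 to 42.8 ± 1.40 CPM and from 46.0 ± 3.68 to 37.0 ± 1.72 CPM (mean ± SD, n = 3 per group), log2 fold changes of -0.28 and -0.32. MVD, the decarboxylase that makes isopentenyl pyrophosphate (chromosome 16, 88651935 to 88663161, minus strand), had the lowest log2 fold change of the 39, next to FDPS. It had 263, 274 and 279.9 CPM across shCtrl and 171, 196 and 172 CPM across shSATB1, with a log2 fold change of -0.60 (SE 0.0677; adjusted p = 3.2e-05). The difference between the kinases and MVD was not tested. The isomerase gene IDI1 went from 232 ± 31.1 to 179 ± 5.45 CPM, spread in shCtrl over 201, 263 and 232 CPM and still without overlap.

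FDPS and FDFT1 act where isoprenoids are committed to sterols. FDPS, farnesyl pyrophosphate synthase, supplies both squalene synthesis and protein prenylation (chromosome 1, 155308748 to 155320666, plus strand). It had 391, 389 and 386 CPM in the shCtrl libraries and 242, 258 and 269 CPM in the shSATB1 libraries, a log2 fold change of -0.60 (SE 0.0612; adjusted p = 1.5e-05). FDFT1, squalene synthase, had 699, 765 and 716 CPM across shCtrl and 494, 505 and 487 CPM across shSATB1, with -0.55 (SE 0.0612; adjusted p = 2.72e-05). For both genes the lowest shCtrl library was above the highest shSATB1 library by more than the whole range within either group. The 8 annotated pseudogenes of FDPS held few reads, which amounted to 0.203% of those of the gene.

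Squalene epoxidase, SQLE, a rate-limiting step after squalene, moved least among the falling genes, from 281 ± 12.9 to 236 ± 5.24 CPM (log2 fold change -0.25, SE 0.0605; adjusted p = 0.00671). LSS, lanosterol synthase, fell by 0.38 on the log2 scale (adjusted p = 0.00179). CYP51A1, the lanosterol demethylase, could not be judged. It had between 12 and 25 reads per library, a log2 fold change of -0.31 with a 95% interval from -1.10 to 0.49, and 83.2% of its exon positions are shared with other annotated genes, among them AC000120.2 and AC000120.3 on the same strand. Reads at such positions are counted as ambiguous by HTSeq's usual rule, and whether that happened here was not tested.

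The last steps, from lanosterol to cholesterol, were mixed. EBP, the sterol isomerase, had 117, 149 and 130.4 CPM in the shCtrl libraries and 89.5, 98.1 and 87.9 CPM in the shSATB1 libraries, with no overlap and a log2 fold change of -0.53 (SE 0.0823; adjusted p = 0.000396). DHCR7, which reduces 7-dehydrocholesterol to cholesterol, had 311, 306 and 322 CPM across shCtrl and 211, 247 and 227 CPM across shSATB1 (log2 fold change -0.46, SE 0.0672; adjusted p = 0.000248). HSD17B7, NSDHL and MSMO1, which remove the methyl groups at carbon 4, fell with log2 fold changes of -0.39, -0.33 and -0.27. HSD17B7 has 2 annotated pseudogenes, which held 11.4% as many reads, so its value is uncertain. The libraries of MSMO1 overlapped, with 155, 196 and 184 CPM in the shCtrl libraries and 144, 141 and 159 CPM in the shSATB1 libraries. The sterol reductase gene TM7SF2 stood at 63.5 ± 4.15 and 62.7 ± 3.88 CPM (adjusted p = 0.878, 95% interval of the log2 fold change -0.17 to 0.14). SC5D, the sterol desaturase before DHCR7, stood at 53.8 ± 2.43 and 50.6 ± 0.768 CPM (adjusted p = 0.329, interval -0.23 to 0.05). LBR, which can carry out the same reduction as TM7SF2 and is no member of the 39, fell from 333 ± 11.6 to 269 ± 13.1 CPM (log2 fold change -0.31).

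Of the 5 SREBP regulators 1 fell, INSIG1. That share lies between the 16.6% falling over all tested genes and the 25.3% over genes above 8 CPM. None of the 5 rose by any of the 3 tools (none at an unadjusted p under 0.05), against 14.3% of all tested genes. The transcripts of the SREBP factors themselves did not pass the test. SREBF1, whose products act mainly on fatty acid genes, had 249, 254 and 261 CPM across shCtrl and 227, 251 and 224 CPM across shSATB1. The log2 fold change was -0.12 with a 95% interval from -0.26 to 0.01 (adjusted p = 0.161). SREBF2, the main factor for sterol genes, had 398, 371 and 392 CPM in the shCtrl libraries and 358, 376 and 352 CPM in the shSATB1 libraries, with -0.10 and an interval from -0.23 to 0.03 (adjusted p = 0.248). In both genes 1 library crossed into the range of the other group, and each interval allows a small fall. With a correction for exon length and GC content both passed as lower, SREBF1 with -0.17 (adjusted p = 0.0136) and SREBF2 with -0.12 (0.0342). SCAP, the escort of SREBP, stood at 129, 126 and 131 CPM and at 121, 131 and 115 CPM (log2 fold change -0.08, interval -0.21 to 0.06; adjusted p = 0.411). Messenger RNA levels do not report on SREBP cleavage, which was not measured.

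Of the INSIG pair, which retains SREBP in the endoplasmic reticulum, INSIG1 passed the test and INSIG2 did not. INSIG1, itself a classical SREBP target, had 896, 1049 and 989 CPM across shCtrl and 739.6, 754 and 784 CPM across shSATB1. It fell by 0.37 on the log2 scale (SE 0.0684; adjusted p = 0.00135), with no overlap between the groups. INSIG2, which is not controlled by SREBP in the same way, had 24.2, 31.0 and 28.7 CPM in the shCtrl libraries and 30.7, 29.2 and 34.0 CPM in the shSATB1 libraries, a log2 fold change of 0.16 with an interval from -0.04 to 0.37 (adjusted p = 0.214). The ratio of INSIG1 to INSIG2, each per exon length, was 38.0 ± 1.87 (SD, n = 3) in shCtrl and 26.3 ± 1.54 in shSATB1. All 3 ratios in shSATB1 lay below all 3 in shCtrl. A two-sided exact permutation test gave p = 0.1, the smallest possible, and 0.25 adjusted over 5 gene pairs tested in this way.

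Of the 6 sterol transport and LXR genes, 2 (33.3%) fell, against 16.6% of all tested genes and 25.3% of genes above 8 CPM. None of the 6 rose by any of the 3 tools (1 was higher at an unadjusted p under 0.05), against 14.3% of all tested genes. Their median log2 fold change was -0.12. The LXR beta gene NR1H2 had 46.6, 49.7 and 51.9 CPM across shCtrl and 34.3, 40.5 and 37.7 CPM across shSATB1, a log2 fold change of -0.40 (SE 0.0768; adjusted p = 0.00168). The LXR alpha gene NR1H3 was low throughout, at 6.82, 8.66 and 6.72 CPM and at 6.55, 6.35 and 6.90 CPM, with overlapping groups (adjusted p = 0.357). Per exon length NR1H3 reached 0.124 ± 0.0186 of NR1H2 in shCtrl, so LXR beta was the more abundant LXR transcript in these cells.

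Of the exporters, ABCG1 fell from 66.1 ± 3.80 to 53.2 ± 0.810 CPM (log2 fold change -0.31, SE 0.0651; adjusted p = 0.00257). ABCA1 had the highest log2 fold change of the 39, at 0.63, yet rests on few reads. It had 1.83, 0.946 and 1.77 CPM in the shCtrl libraries and 2.84, 2.36 and 1.86 CPM in the shSATB1 libraries, without overlap, and did not pass (95% interval 0.08 to 1.19; adjusted p = 0.0795). It passed without shCtrl replicate 1 and without the filter on low counts, and its log2 fold change was -0.12, far from the threshold (adjusted p = 0.894), with the covariate introduced further on. STARD4, a cytosolic sterol carrier, and NPC1, the lysosomal cholesterol exporter, had mean levels of 99.3 ± 3.96 and 73.7 ± 5.68 CPM with the control hairpin against 94.1 ± 7.12 and 74.0 ± 3.00 CPM with shSATB1 (adjusted p = 0.42 and 0.954). With the correction for exon length and GC content STARD4 passed as lower (-0.19, adjusted p = 0.0056).

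Transcripts of fatty acid synthesis fell at the entry of the pathway, at chain building and at desaturation, but not for every gene. Of 10 genes, 6 fell and none rose by any of the 3 tools (none at an unadjusted p under 0.05), and the median log2 fold change was -0.31. ACLY, which makes cytosolic acetyl-CoA from citrate, had 773, 684 and 731 CPM across shCtrl and 577, 591 and 572 CPM across shSATB1 (log2 fold change -0.33, SE 0.0635; adjusted p = 0.00158). FASN, the fatty acid synthase (chromosome 17, 82078333 to 82098332, minus strand), had 885, 739 and 879 CPM in the shCtrl libraries and 645, 705 and 628 CPM in the shSATB1 libraries (-0.34, SE 0.0777; adjusted p = 0.00478). In FASN the groups came close, since shCtrl 2 was low and shSATB1 2 high, but did not overlap.

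**Figure D3:**
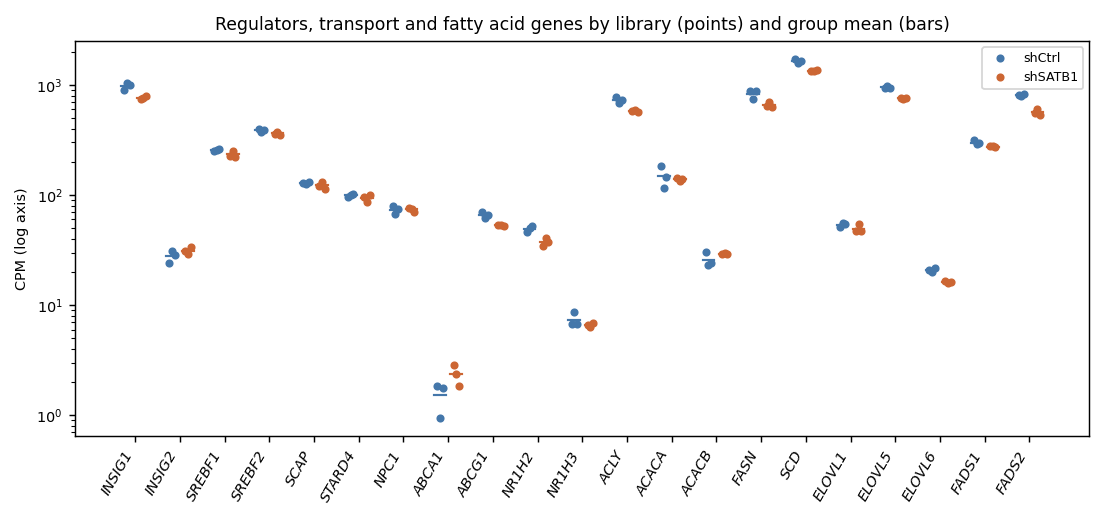
CPM on a log axis of the 5 SREBP regulators, the 6 transport and LXR genes and the 10 fatty acid synthesis genes in each library (points; shCtrl in blue, shSATB1 in orange), with group means as bars. SCD, INSIG1, ELOVL5, FASN, FADS2 and ACLY are the most abundant by CPM and separate by group, while ACACA spreads widely in shCtrl.

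The carboxylases that make malonyl-CoA did not pass the test. ACACA, the cytosolic enzyme, had 183, 115 and 147 CPM across shCtrl and 144, 134 and 138 CPM across shSATB1, so that the shCtrl libraries enclosed all of shSATB1 (log2 fold change -0.09, interval -0.35 to 0.16; adjusted p = 0.589). The call depended on the library left out, as ACACA passed as lower without shCtrl replicate 2. ACACB, the mitochondrial form that restrains fatty acid oxidation, stood at 26.0 ± 4.12 and 29.4 ± 0.310 CPM (log2 fold change 0.18; adjusted p = 0.19), and passed as higher without shCtrl replicate 1.

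SCD, the stearoyl-CoA desaturase, was the most abundant of the 39. It had 1728, 1578 and 1641 CPM in the shCtrl libraries and 1346, 1329 and 1357 CPM in the shSATB1 libraries (log2 fold change -0.30, SE 0.0611; adjusted p = 0.00253), with no overlap. Per kilobase of exon it reached 308 ± 14.0 CPM (SD, n = 3) in shCtrl, ahead of INSIG1 at 268 ± 21.0 and ELOVL5 at 250.1 ± 6.12. ELOVL5 and ELOVL6, elongases of polyunsaturated and of saturated chains, fell by 0.34 and 0.37 on the log2 scale, from means of 953 ± 23.3 CPM and 21.0 ± 0.918 CPM in shCtrl. ELOVL1, which makes very long chains, stood at 53.9 ± 2.37 and 49.6 ± 4.14 CPM (adjusted p = 0.248).

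FADS1 and FADS2 are neighbouring genes on opposite strands that desaturate polyunsaturated fatty acids. FADS2, the delta-6 desaturase (chromosome 11, 61792980 to 61867354, plus strand), had 809, 795 and 832 CPM across shCtrl and 557, 608 and 537 CPM across shSATB1, the largest fall of the fatty acid genes (log2 fold change -0.52, SE 0.0646; adjusted p = 7.16e-05). FADS1, the delta-5 desaturase (chromosome 11, 61799625 to 61829318, minus strand), stood at 317, 288 and 294 CPM and at 278, 276 and 271 CPM, a log2 fold change of -0.12 (adjusted p = 0.145). FADS1 libraries did not overlap either, but the gap was small. Per exon length the ratio of FADS1 to FADS2 was 0.398 ± 0.0219 (SD, n = 3) in shCtrl and 0.524 ± 0.0295 in shSATB1, without overlap (two-sided exact permutation p = 0.1, the smallest possible; 0.25 adjusted over the 5 pairs). The overlap in their annotation covers at most 5.57% of the exon positions of either gene. The other pairs of related genes, SREBF1 with SREBF2, NR1H3 with NR1H2 and ACACA with ACACB, gave exact permutation p-values of 0.7, 0.2 and 0.2.

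Exon length and the control libraries bear on these values. Genes above 8 CPM were put into 5 equal groups by exon length. Their median log2 fold change was -0.21 in group 1, the shortest (up to 3.14 kb), and 0.12 in group 5, the longest (from 8.56 kb), and the share that fell was 44.5% and 10.9%. Sterol synthesis genes had a median exon length of 4.30 kb and fatty acid genes one of 8.33 kb. In group 1, 4 of 5 lipid genes fell. In group 2 it was 8 of 10, where 31.8% of all genes fell, and in group 3 it was 7 of 9, against 22.5%. In group 4, 3 of 6 fell, against 16.6%, and in group 5, 2 of 6, FASN and FADS2. These groups hold few lipid genes and are a description.

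**Figure D4:**
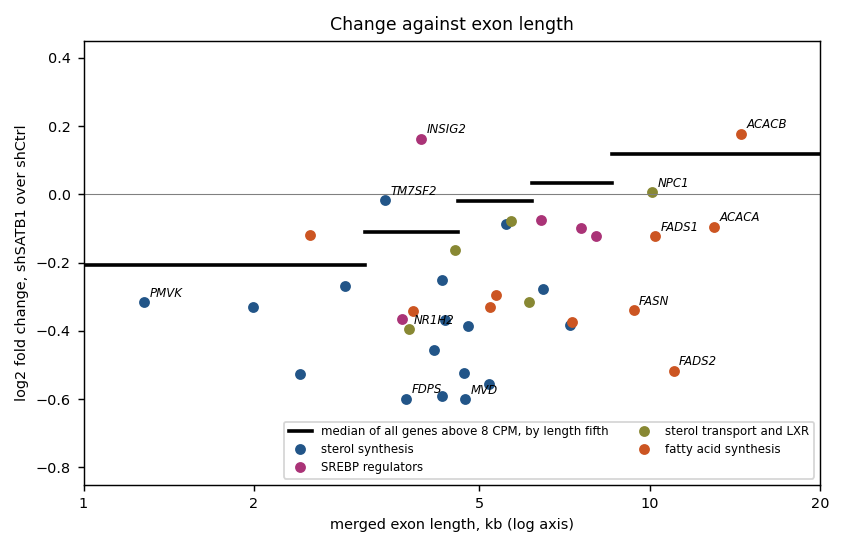
Log2 fold change against merged exon length (log axis) for the 37 lipid genes with at least 2 CPM in shCtrl, coloured by role. Black lines are medians of all genes above 8 CPM in 5 groups of exon length, from -0.21 to 0.12, and 32 of the 36 lipid genes above 8 CPM lie below the line of their group.

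Library shCtrl 2 stood apart by the same property. Over the 37 lipid genes with at least 2 CPM in shCtrl, the level in shCtrl 2 relative to the mean of shCtrl 1 and 3 went down with exon length (Pearson r = -0.73, Spearman rho = -0.75 across genes, which share their libraries). It was the highest control library for 11 of 18 sterol synthesis genes and the lowest for 8 of 10 fatty acid genes. Its share of reads outside annotated exons was the lowest, 7.77%. Without shCtrl replicate 2, 26 of the 39 genes fell, 8 of them fatty acid genes, and INSIG2 rose. Calls over all genes also varied between such fits. Leaving out each library in turn gave 1817 to 3562 falling and 1650 to 3218 rising genes, against 2910 and 2500 with every library.

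With the share of reads outside annotated exons as a covariate, fewer sterol synthesis genes and more fatty acid genes passed. The shift in log2 fold change that the covariate brought went down with exon length over 37 lipid genes (Pearson r = -0.77, Spearman rho = -0.78). Fatty acid genes were the longer group (median 8.33 kb against 4.30 kb), and the part of length was not tested. Falls with the covariate numbered 16 of 39, against 7.2% of all genes in that fit. INSIG2 rose, as did 4.9% of all genes (log2 fold change 0.40, adjusted p = 0.0423). Sterol synthesis kept 7 falls: HMGCS1, MVD, FDPS, FDFT1, LSS, DHCR7 and ACAT2, with adjusted p from 2.45e-08 (HMGCS1) to 0.00044 (ACAT2). Fatty acid synthesis had 8 falls, its earlier 6 together with FADS1 (-0.23) and ACACA (-0.66, adjusted p = 4.57e-08). Of the other falls in the first fit, EBP went to -0.19 (adjusted p = 0.147), IDI1 to -0.06 (0.7), INSIG1 to -0.18 (0.0815) and NR1H2 to -0.28 (0.0983), while ABCG1 kept its fall (-0.45). The others that no longer passed were MVK (adjusted p = 0.449), PMVK (0.658), SQLE (0.178), MSMO1 (0.9), NSDHL (0.955) and HSD17B7 (0.0609). The covariate differs between the groups without overlap, so it can also absorb part of the group difference. With a correction for exon length and GC content instead, 26 of 39 fell, against 15.8% of all genes, among them 13 sterol and 7 fatty acid synthesis genes, and PMVK (adjusted p = 0.385) and NSDHL (0.244) lost the call.

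**Figure D5:**
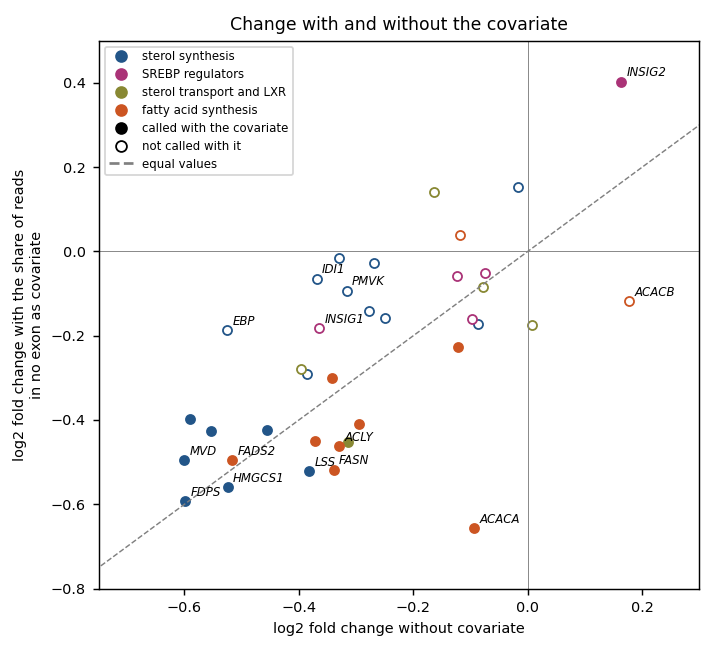
Log2 fold change of 37 lipid genes without (horizontal) and with (vertical) the share of reads outside annotated exons as a covariate, coloured by role, filled where called with it. Sterol genes such as EBP, IDI1 and PMVK lie above the line of equal values, and FASN, ACLY, LSS and ACACA lie below it.

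Of the 24 falling genes, 14 kept call and direction in all 16 other fits, the test beyond 1.2-fold aside. These were HMGCS1, MVD, FDPS, FDFT1, LSS, DHCR7, ACAT2, ABCG1, ACLY, FASN, SCD, ELOVL5, ELOVL6 and FADS2. Leaving out a single library ended the call of MVK (without shCtrl replicate 3, shSATB1 replicate 1 or shSATB1 replicate 3), PMVK (without shSATB1 replicate 1), NSDHL (without shSATB1 replicate 1 or 3) and MSMO1 (without shCtrl replicate 3, shSATB1 replicate 1 or 2).

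Genes around the synthesis pathways were counted in the same way. Their counts stand beside 16.6% falling and 14.3% rising over all tested genes, or 25.3% and 17.7% over genes above 8 CPM. Counts with the covariate stand beside 7.2% falling and 4.9% rising over all genes in that fit. Of 20 tested genes of fatty acid supply, elongation and activation outside the 39, 9 (45.0%) fell and none rose by any of the 3 tools (2 were higher at an unadjusted p under 0.05), with a median log2 fold change of -0.25. ACSS2, which makes acetyl-CoA from acetate and is a known SREBP target, fell from 29.5 ± 1.60 to 19.7 ± 0.431 CPM (log2 fold change -0.58, SE 0.0769; adjusted p = 0.00011). HACD1 and HACD3, dehydratases of the elongation cycle, fell by 0.48 and 0.41 on the log2 scale, and SLC25A1, the mitochondrial citrate carrier that feeds ACLY, by 0.44. With the covariate 3 of the 20 fell, and HACD1 (adjusted p = 0.645) and SLC25A1 (0.148) did not pass.

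The machinery that moves and cleaves SREBP had 5 falls (26.3%) and 3 rises (15.8%) among 19 genes, shares near those of genes above 8 CPM, and a median log2 fold change of 0.04. With the covariate 3 fell and 2 rose, beside 7.2% falling and 4.9% rising over all genes in that fit. SEC23A and SEC23B, coat proteins of vesicles that leave the endoplasmic reticulum, both fell. SEC23A went from 75.5 ± 0.909 to 43.0 ± 1.05 CPM (log2 fold change -0.81, SE 0.0610; adjusted p = 1.26e-06), and SEC23B had a log2 fold change of -0.35. VCP, an ATPase of protein extraction from the endoplasmic reticulum, fell by 0.41 on the log2 scale. SEC24C, a cargo adaptor of the same coat, rose from 82.8 ± 9.50 to 108 ± 2.96 CPM, and did not pass with the covariate (adjusted p = 0.438). ERLIN2 also fell, and SEC24A and PAQR3 also rose. ERLIN2 (adjusted p = 0.125) and SEC24A (0.392) did not pass with the covariate, nor PAQR3 with the correction for exon length and GC content (log2 fold change 0.024, adjusted p = 0.788).

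Isoprenoid branches beyond FDPS had 4 falls (25.0%) and 1 rise among 16 genes (median log2 fold change -0.10), a share of falls near that of genes above 8 CPM. With the covariate 1 fell. PDSS1, which builds the side chain of ubiquinone, fell from 40.5 ± 4.32 to 26.2 ± 1.76 CPM (log2 fold change -0.63, SE 0.0881; adjusted p = 0.000168). COQ2, RABGGTB and DPAGT1 fell too and PGGT1B, a prenyltransferase subunit, rose from 37.7 ± 1.24 to 43.5 ± 2.67 CPM. COQ2 (adjusted p = 0.337), RABGGTB (0.166), DPAGT1 (0.277) and PGGT1B (0.213) did not pass with the covariate, and with the correction for exon length and GC content the log2 fold change of PGGT1B was -0.0050. Of 16 other fits, DPAGT1 lost its call in 10, PGGT1B in 9 and COQ2 in 6. DESeq2 was among them for DPAGT1 and PGGT1B.

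Other sterol enzymes and ester genes had 2 falls, LBR and the mitochondrial thiolase gene ACAT1, and no rise by any of the 3 tools among 10 tested (none at an unadjusted p under 0.05; median -0.18). Other sterol carriers and receptors had 4 falls and 4 rises among 19 (21.1% each, near the shares over all genes; median -0.01). MYLIP, a ubiquitin ligase for lipoprotein receptors and an LXR target, had the largest rise of all genes in these lists, with 1.90, 2.40 and 2.70 CPM in shCtrl and 5.61, 6.35 and 5.76 CPM in shSATB1. No library overlapped, and the log2 fold change was 1.34 (SE 0.160; adjusted p = 5.34e-05). The oxysterol-binding protein genes OSBPL8 and OSBPL3 rose by log2 fold changes of 0.48 and 0.40, while OSBPL5 fell by 0.33 on that scale. With the covariate OSBPL8 did not pass (adjusted p = 0.221). The remaining rise was SCARB2, and the remaining falls were NPC2, GRAMD1A and SCARB1. SCARB2 (adjusted p = 0.0867), NPC2 (0.717) and GRAMD1A (0.123) did not pass with the covariate. With the correction for exon length and GC content SCARB2 (0.368) and NPC2 (0.106) did not pass either, and SCARB1 lost the call without shSATB1 replicate 1 or 3.

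Glycerolipid synthesis had 8 falls (33.3%) and 2 rises (8.33%) among 24 genes (median -0.08). With the covariate 2 fell and none rose. CHPT1 and PEMT, which make phosphatidylcholine, had log2 fold changes of -0.51 and -0.48. GPAT3, an acyltransferase, fell by 0.42 on the log2 scale, and PTDSS1, a phosphatidylserine synthase, fell from 214 ± 9.16 to 164 ± 4.59 CPM. Of these 4, PTDSS1 passed with the covariate (adjusted p = 0.0113). The rises, AGPAT3 and PCYT1A, were small, with log2 fold changes of 0.21 and 0.19, and neither passed with the covariate (adjusted p = 0.316 and 0.775).

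Mitochondrial fatty acid synthesis, which makes the lipoic acid precursor by a separate enzyme set, had 5 falls and no rise by any of the 3 tools among 10 genes (none at an unadjusted p under 0.05; median -0.28). The acyl carrier NDUFAB1 had the largest log2 fold change, -1.71, and LIPT2, HSD17B8, MCAT and MECR fell between -0.69 and -0.29. With the covariate NDUFAB1 passed and these 4 did not. The 10 genes are mostly short, with a median exon length of 2.44 kb. Of all genes above 8 CPM in the shortest length group, up to 3.14 kb, 44.5% fell.

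Fatty acid oxidation, the opposing pathway, had 5 falls (20.8%) and 4 rises (16.7%) among 24 tested genes, near the shares over all genes (median -0.02). With the covariate 1 fell and 1 rose. ECI2, an enoyl-CoA isomerase, fell from 26.1 ± 4.41 to 15.8 ± 0.829 CPM. HADH had a log2 fold change of -0.35, and further falls were ACADVL, HADHA and ETFA. ACADSB rose from 31.6 ± 1.34 to 40.8 ± 2.22 CPM. ETFB (log2 fold change 0.33) and the nuclear receptor gene PPARD also rose. ECI2 (adjusted p = 0.131), ACADVL (0.443), HADHA (0.0657), ETFA (0.838), ACADSB (0.224), ETFB (0.0897) and PPARD (0.182) did not pass with it.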

How the data were processed

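The authors deposited raw read counts per Ensembl gene, 1 table for each of 6 Jurkat libraries, grouped here by sample title. The submitters' processing notes name Trim Galore, STAR, HTSeq and hg38 with no version. Annotation release and strand setting are not given. Summary lines that name no gene, 22.4% to 25.1% of reads, were left out. All 58735 identifiers matched GENCODE 29.

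Testing used edgeR 4.0.16 in R 4.3.3 with TMM, filterByExpr (minimum count 10), the quasi-likelihood F test, and Benjamini-Hochberg adjustment over 17520 genes at 0.05. Intervals are 95%, from edgeR's moderated degrees of freedom. A count of 3 reads equals 0.104 to 0.113 CPM, for counting error only. Scripts were tested on simulated data. Other fits used limma 3.58.1, DESeq2 1.42.0, other normalizations and filters, a covariate, a correction for length and GC content, a replicate block, and each library left out.

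The 39 genes and the other lists were chosen with earlier results of these data known. Values in every library are given for called genes of the 39 without overlap and with a log2 change of at least 0.4, and for preset regulators and fatty acid enzymes; IDI1, MSMO1, ABCA1, FADS1 and MYLIP were added after their values were seen. From other lists up to 4 called genes of largest change and at least 2 CPM are described, and others where 5 or fewer moved one way. Some called genes of these lists are not reported here.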

Additional observations from a re-analysis of the deposited data

How the results depend on the processing

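Of 623 log2 fold changes of the 39 genes under other settings, 561 kept their direction and their side of the threshold, 23 lost the call, 18 gained one and 21 changed sign. The sign changes were in 8 genes that passed neither in the first fit nor in the fit that turned the sign. The TM7SF2 log2 fold change turned from -0.02 to 0.15 (covariate), 0.090 (length and GC correction, with or without the block) and 0.0024 (1 CPM filter), and ran from -0.078 to 0.036 with libraries left out. The NPC1 log2 fold change turned from 0.01 to -0.17 (covariate), -0.052 and -0.051 (length and GC correction with and without the block) and -0.0054 (no filter), and ran from -0.048 to 0.051 with libraries left out. The ELOVL1 log2 fold change turned from -0.12 to 0.040 (covariate) and 0.069 (length and GC correction, with or without the block). With the covariate the CYP51A1 log2 fold change turned to 0.71, the NR1H3 log2 fold change to 0.14, the ABCA1 log2 fold change to -0.12 and the ACACB log2 fold change to -0.12. The ACACA log2 fold change ran from -0.24 without shCtrl replicate 2 to 0.079 without shCtrl replicate 1. The causes were not tested. With DESeq2, limma-voom, DESeq2 size factors, upper quartile normalization and the replicate block, none of the 39 calls changed. With the share of reads outside annotated exons as a covariate, rising genes numbered 858 and falling genes 1262 over all genes, against 2500 and 2910, and 7 sterol synthesis genes fell and 1 lipid gene rose. In the test beyond 1.2-fold, 758 genes rose and 698 fell over all genes, and 8 of the 39 fell. Without a filter on low counts 1 lipid gene rose. With the replicate number as a block, 24 of the 39 fell. Same-numbered libraries deviated together for numbers 1 and 2 (r = 0.30 and 0.18) but not for 3 (r = -0.07), so the numbers were not taken to pair the libraries. Leaving out each library in turn gave 1650 to 3218 rising and 1817 to 3562 falling genes over all genes, 20 to 26 falling and 0 to 2 rising lipid genes, 11 to 15 falling sterol synthesis genes and 6 to 8 falling fatty acid genes. The number of genes rising was lowest without shSATB1 replicate 3 (1650) and shCtrl replicate 3 (1662), and that of genes falling without shSATB1 replicate 1 (1817) and shSATB1 replicate 3 (1852). Lipid genes past the test beyond 1.2-fold numbered 5 to 12 (5 without shSATB1 replicate 3). The log2 fold change of SATB1 ran from -1.40 to -1.35, and the summed level of the sterol synthesis genes from 71.6% to 73.8% of control. Scaled to reads in genes without TMM, chosen after seeing the data, that level was 77.2%. Outside the 39, the PGGT1B log2 fold change turned from 0.21 to -0.0050 with the correction for length and GC content and to -0.0038 with the replicate block added, and the cause was not tested. CYP51A1 and ABCA1 rest on few reads, and why CYP51A1 had so few was not tested.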
